A study of Mus musculus with 28 samples.

Results

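The transcripts described here are those of 9 genes widely used to tell classes of inhibitory neurons apart, taken by gene symbol from the 23038 genes measured: *Pvalb*, *Calb1* and *Calb2* for calcium-binding proteins, *Sst*, *Vip*, *Npy* and *Cck* for secreted peptides, *Lhx6* for a transcription factor and *Reln* for a secreted glycoprotein. All 9 were found. They were followed in 28 bulk polyadenylated RNA libraries of mouse brain, from a study that asked whether replacing an isoleucine of the neuronal splicing factor NOVA1 by the valine of modern humans changes gene expression. *Nova1* hu/hu mice carried this substitution on both alleles, together with silent changes added for genotyping, and *Nova1* wt/wt mice were their littermate controls. The knock-in had been made with Cas9 in C57BL6 zygotes and backcrossed repeatedly to C57BL/6J.

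Midbrain was taken before birth, at E18.5, from 6 hu/hu and 6 wt/wt mice. Midbrain and cortex were taken at postnatal day 21 (P21), each from 4 hu/hu and 4 wt/wt mice. Each library is a whole dissected region, so fewer cells of a type and less RNA per cell cannot be told apart. Cerebellum libraries were not analysed here. The study's methods describe the libraries as biological replicates, with males and females in equal number. Library totals were 18550922 to 45134998 counts. *Nova1* lay at 98.4 to 126 TPM (abundance per transcript length, scaled to the same total in each library) in embryonic midbrain, 45.7 to 52.7 TPM in P21 midbrain and 23.0 to 25.5 TPM in cortex, without a called genotype difference, and its level cannot check the substitution. The summed level of 6 midbrain genes (*En1*, *Pax7*, *Gata3*, *Tph2*, *Foxa2*, *Pou4f1*) was at least 56.7 TPM in every midbrain library and at most 2.85 TPM in cortex, where *Foxa2* had 0 TPM. *Slc17a7*, the vesicular glutamate transporter of cortical excitatory neurons, had a mean of 1764 TPM in cortex, 140 TPM in P21 midbrain and 4.01 TPM in embryonic midbrain. The labelled regions therefore matched their markers. Markers of neighbouring tissue were present as well. In cortex 4 striatal genes summed to 591 to 746 TPM. Most of this was *Ppp1r1b*, with a mean of 546 TPM, against 49.2 TPM for *Adora2a*, 46.5 TPM for *Drd2* and 28.9 TPM for *Rgs9*. In P21 midbrain 6 hypothalamic genes summed to 341 to 436 TPM and 4 choroid plexus genes to between 12.05 and 3035 TPM. The thalamic marker *Prkcd* had a mean of 180 TPM in P21 midbrain and 13.3 TPM in embryonic midbrain. Other thalamic markers differed from it, with *Tcf7l2* at 67.5 and 177 TPM, *Lef1* at 10.3 and 14.9 TPM and *Slc17a6* at 203 and 201 TPM.

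GABA-releasing interneurons of the cortex fall into classes that are recognised by such transcripts. Parvalbumin marks fast-spiking cells, somatostatin marks dendrite-targeting cells, and vasoactive intestinal peptide marks cells that mostly inhibit other interneurons, while cholecystokinin, neuropeptide Y, calbindin and calretinin are shared among several classes. None of these genes is restricted to interneurons. Cholecystokinin is also made by cortical excitatory neurons and by some dopamine neurons, calretinin by many neurons of thalamus and midbrain, calbindin and parvalbumin by cerebellar Purkinje cells, and reelin by Cajal-Retzius cells of the embryonic cortex.

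The 4 peptide genes are shown by the DNA just before their transcription start, because their levels were all higher in cortex than in midbrain and *Sst* is the classical gene in which the cAMP response element was defined. RefSeq promoter windows on build GRCm38.p6, from 250 bases before to 50 bases after a start, matched 7 of the 9 genes. *Calb1* and *Calb2* were the genes without a window in that table. The 120 bases ending directly before the start are printed 5′ to 3′ on the strand of the gene. The start is that of the promoter window. For *Sst* and *Vip* it lay inside the gene coordinates given below. Their printed bases thus fell within those coordinates, wholly for *Sst* and in part for *Vip*. Capitals mark TGACG on either strand, the core of the element, including its palindromic full form TGACGTCA.
*Sst* (chr16:23890845-23890964, minus strand): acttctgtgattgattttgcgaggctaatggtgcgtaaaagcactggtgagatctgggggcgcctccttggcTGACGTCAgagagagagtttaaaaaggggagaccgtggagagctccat
*Vip* (chr10:5639098-5639217, plus strand): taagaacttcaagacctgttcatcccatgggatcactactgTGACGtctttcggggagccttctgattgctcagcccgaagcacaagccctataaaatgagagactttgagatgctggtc
*Npy* (chr6:49822590-49822709, plus strand): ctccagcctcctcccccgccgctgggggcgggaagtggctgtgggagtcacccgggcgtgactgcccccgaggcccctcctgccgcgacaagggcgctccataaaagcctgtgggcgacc
*Cck* (chr9:121495695-121495814, minus strand): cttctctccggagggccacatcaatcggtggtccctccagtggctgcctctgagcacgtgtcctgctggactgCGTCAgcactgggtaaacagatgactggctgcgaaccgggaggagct
The full form lay in the *Sst* window at bases -48 to -41 from the start, and in 1.79% of all 32851 windows. The 5-base core was found in the *Sst*, *Vip* and *Cck* windows and in 20.8% of all windows. It was not found in the windows of *Npy*, *Pvalb*, *Lhx6* or *Reln*. These matches describe letters in a window and are not evidence of a bound site.

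Levels are compared between genes as TPM, which takes account of transcript length. In E18.5 midbrain *Calb2* and *Sst* led, with 277 ± 18.3 TPM and 267 ± 19.0 TPM (SD, n = 12). Their ranges overlapped, and *Calb2* exceeded *Sst* in 9 of 12 libraries. *Npy* (87.1 ± 9.67 TPM) exceeded *Calb1* (67.6 ± 9.67 TPM) in 11 of 12 libraries, also with overlapping ranges. *Reln* (52.8 ± 4.96 TPM) and *Cck* (33.0 ± 5.24 TPM) followed, each below its neighbour in 12 of 12 libraries although the ranges over libraries overlapped. *Pvalb* (4.80 ± 1.42 TPM), *Lhx6* (2.84 ± 0.860 TPM) and *Vip* (1.04 ± 0.423 TPM) were low, and *Pvalb* exceeded *Lhx6* in 9 of 12 libraries.

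In P21 midbrain the order was *Calb2* with 521 ± 26.4 TPM, *Sst* with 342 ± 23.3 TPM, *Pvalb* with 318 ± 33.0 TPM, *Cck* with 176 ± 19.4 TPM, *Calb1* with 88.5 ± 4.53 TPM, *Npy* with 76.8 ± 6.75 TPM, *Reln* with 14.03 ± 0.447 TPM, *Vip* with 6.99 ± 0.860 TPM and *Lhx6* with 1.32 ± 0.429 TPM (SD, n = 8). The ranges of *Sst* and *Pvalb* overlapped, as did those of *Calb1* and *Npy*, while all other neighbours in this order were apart. P21 cortex had a different order, led by *Sst* with 743 ± 48.6 TPM, *Cck* with 629 ± 54.8 TPM and *Npy* with 573 ± 16.6 TPM. There *Sst* exceeded *Cck* in 8 of 8 libraries and *Cck* exceeded *Npy* in 7 of 8, although neighbouring ranges overlapped. *Calb1* (134 ± 6.40 TPM) and *Pvalb* (129 ± 4.06 TPM) did not differ beyond their spread, with *Calb1* the higher in 5 of 8 libraries. *Calb2* (76.9 ± 7.11 TPM), *Vip* (62.5 ± 3.76 TPM), *Lhx6* (19.0 ± 0.989 TPM) and *Reln* (15.4 ± 0.823 TPM) came last, with overlapping ranges between *Calb2* and *Vip* alone.

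**Figure D1:**
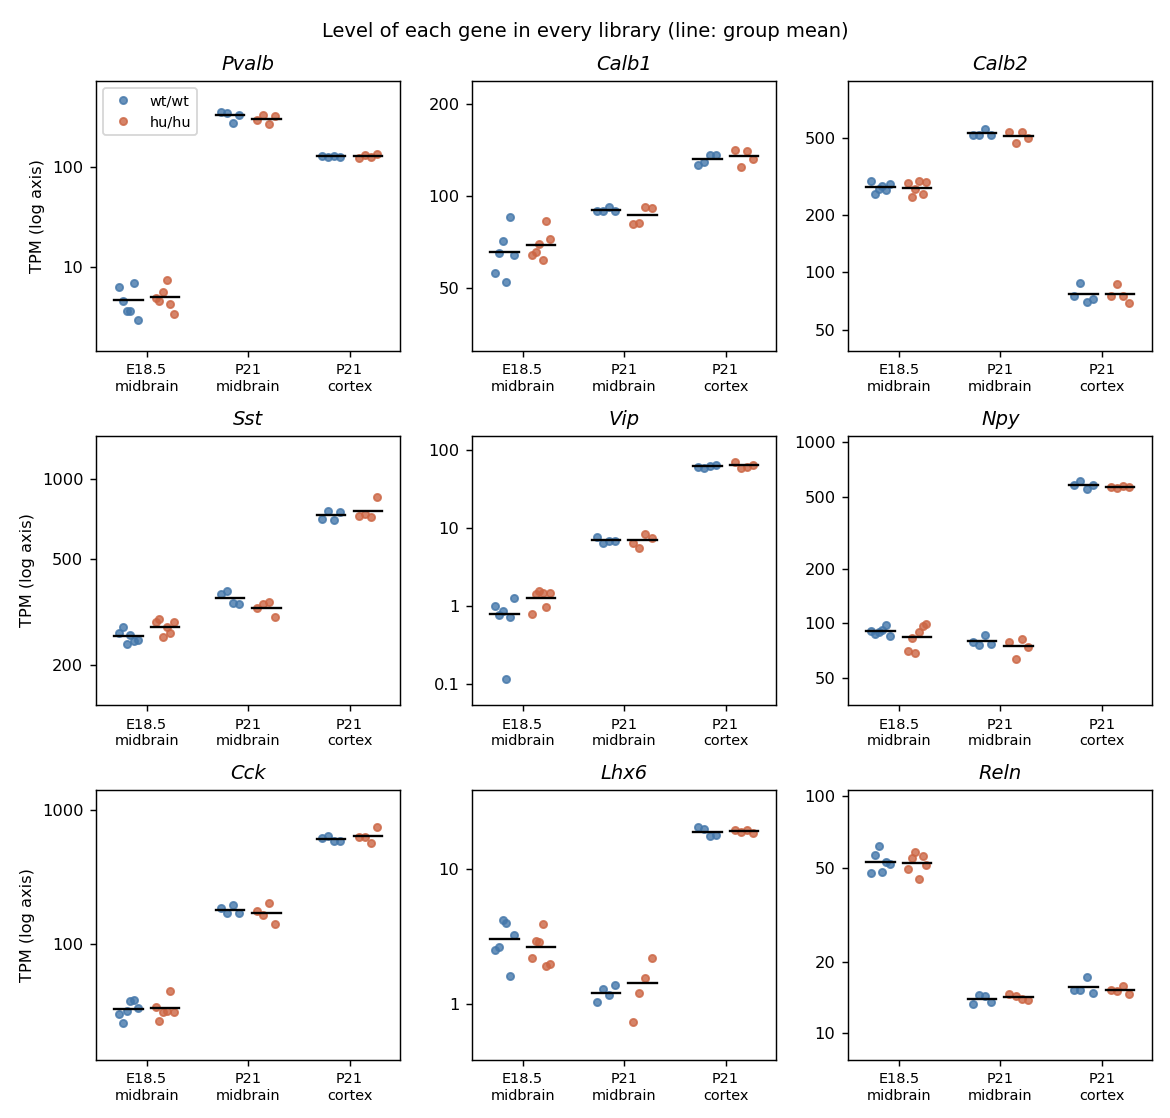
Level of each gene in TPM (log axis) in every library, by age and region, with wt/wt in blue, hu/hu in orange and the group mean as a line. *Pvalb* ran from 2.92 to 7.31 TPM in E18.5 midbrain and from 270 to 361 TPM in P21 midbrain, and hu/hu and wt/wt points overlapped for every gene in every region and age.

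The makeup of the sum over the 9 genes also differed between regions. The 9 genes together reached a mean of 793 TPM in embryonic midbrain, 1544 TPM at P21 in the same region and 2381 TPM in cortex. *Calb2* made up 35.0% of the sum in embryonic midbrain, 33.7% in midbrain at P21 and 3.23% in cortex. *Npy* made up 11.0%, 4.97% and 24.1%, and *Pvalb* 0.605%, 20.6% and 5.43%. *Sst* kept a large share throughout, at 33.6%, 22.1% and 31.2%.

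**Figure D2:**
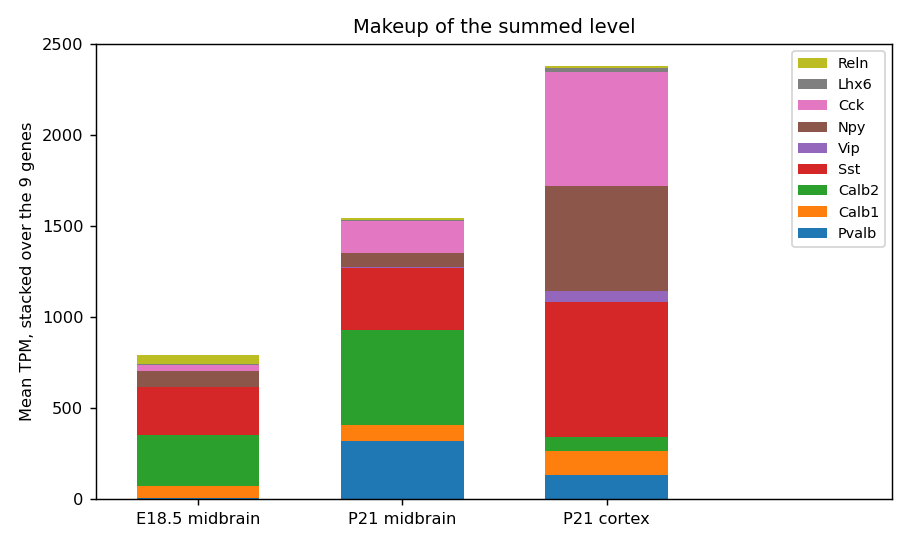
Mean TPM of the 9 genes stacked for midbrain at E18.5 (12 libraries) and P21 (8) and for cortex at P21 (8). The sum rises from 793 to 1544 to 2381 TPM, with *Calb2* and *Pvalb* large in P21 midbrain and *Sst*, *Cck* and *Npy* large in P21 cortex.

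Age in the midbrain was the next comparison, P21 against E18.5 over both genotypes, in a model with genotype as a covariate. Of the 9 genes, 8 passed the test, edgeR's quasi-likelihood test over all 16330 genes with an adjusted p (Benjamini-Hochberg) under 0.1. Since 87.6% of all tested genes passed it too, the count itself says little about these 9. Among them 6 rose and 2 fell, against 43.2% and 44.3% of all genes. At least 2-fold rises were found for 4 genes, *Pvalb*, *Vip*, *Cck* and *Calb2*, and a fall of that size for *Reln* alone. The shares of all tested genes were 15.9% and 14.6%. Of these genes *Vip* entered the test only through its P21 counts, so its rise is a description. TPM ranges of the ages did not overlap for 6 of 9 genes, against 60.1% of all. The median log2 fold change was 0.59 over the 9 genes and -0.02 over all genes.

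Among the calcium-binding proteins, *Pvalb* (Entrez 19293, chr15:78191112-78206400 on GRCm38.p6) moved most. Its counts were 21 to 50 per library at E18.5 and 2659 to 4751 at P21. Its lowest, median and highest levels were 2.92, 4.53 and 7.31 TPM at E18.5, and 270, 328 and 361 TPM at P21. No library of either age came near the other, and the log2 fold change was 6.27 (SE 0.099; edgeR's quasi-likelihood adjusted p = 1.3e-26), or 77.4-fold.

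*Calb2*, which encodes calretinin (Entrez 12308, chr8), went from 247, 277 and 300 TPM at E18.5 to 472, 520 and 559 TPM at P21. The ages did not overlap, and the log2 fold change was 1.11 (SE 0.047; edgeR's quasi-likelihood adjusted p = 9.8e-18). Its deposited count was not a whole number in 23 of 28 libraries, so that some of its reads were assigned in part. Thalamic neurons also make *Calb2*, and the other thalamic markers examined moved in both directions with age. *Prkcd* had a log2 fold change of 3.96 and *Slc17a6* 0.22, while *Tcf7l2* had -1.19 and *Lef1* -0.32. Their part in the rise of *Calb2* was not tested. *Calb1*, which encodes calbindin (Entrez 12307, chr4:15881264-15906709), rose less, from 52.4, 65.3 and 85.4 TPM to 80.9, 89.5 and 92.3 TPM. Its ranges overlapped at their edge, and the log2 fold change was 0.59 (SE 0.064; edgeR's quasi-likelihood adjusted p = 3.1e-09). Of 8 cerebellar neuron genes, 3 rose and 5 fell with age, and their sum was 155 to 216 TPM at E18.5 and 71.0 to 108 TPM at P21. *Cbln1* was the largest part of that sum, with means of 75.8 TPM at E18.5 and 49.6 TPM at P21. The 3 that rose were low, so the sum says little about them. They were *Gabra6* (0.0801 to 2.52 TPM), *Cbln3* (0.628 to 2.68 TPM) and *Ppp1r17* (2.92 to 3.45 TPM). The part of these 8 genes in the levels of *Pvalb* and *Calb1* was not tested.

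Among the peptides, *Vip* (Entrez 22353, chr10:5639193-5647617) and *Cck* (Entrez 12424, chr9:121489824-121495694) rose clearly and *Sst* (Entrez 20604, chr16:23889573-23891342) modestly. *Vip* had only 1 to 21 counts per library at E18.5, or 0.118, 0.991 and 1.57 TPM, and 82 to 119 counts at P21, or 5.60, 6.89 and 8.37 TPM. Its log2 fold change was 2.93 (SE 0.17; edgeR's quasi-likelihood adjusted p = 1.9e-14). Since *Vip* was so low at E18.5, it dropped out of the test where 10 counts were required in every library. It also failed the filter on low counts within E18.5 midbrain alone. Its place in the age test thus came from the P21 libraries, where it was high, and its p is no independent support.

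*Cck* went from 25.9, 31.8 and 45.0 TPM to 140, 174 and 202 TPM, with a log2 fold change of 2.61 (SE 0.083; edgeR's quasi-likelihood adjusted p = 2.7e-20). *Sst* went from 240, 263 and 296 TPM to 302, 340 and 377 TPM, with a log2 fold change of 0.56 (SE 0.048; edgeR's quasi-likelihood adjusted p = 4.5e-11). The ages did not overlap for either gene. *Cck* is made by part of the midbrain dopamine neurons, and the 5 dopamine neuron genes examined summed to 124 to 158 TPM at E18.5 and 293 to 347 TPM at P21. Of these 5 genes 4 rose, *Slc18a2* by a log2 fold change of only 0.30, and *Nr4a2* fell, from a mean of 19.1 to 9.25 TPM. The 6 hypothalamic peptide genes went from 56.7 to 128 TPM to 341 to 436 TPM, a tissue in which *Sst* and *Npy* are also made. The part of either list in the peptide levels was not tested.

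*Npy* (Entrez 109648, chr6:49822710-49829507) was the gene that did not pass. It lay at 68.4, 89.0 and 99.0 TPM at E18.5 and at 63.0, 77.6 and 86.1 TPM at P21, with overlapping ranges. The log2 fold change was 0.02 (SE 0.070, 95% interval -0.13 to 0.16; edgeR's quasi-likelihood adjusted p = 0.83). Its direction depended on the scale, since its TPM ratio was 0.882 while its ratio on TMM-scaled libraries was 1.02. TPM ratios of P21 over E18.5 differed from the fitted changes by a median of -0.20 on the log2 scale over all genes.

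The remaining genes fell with age. *Lhx6*, a transcription factor of interneurons from the medial ganglionic eminence (Entrez 16874, chr2:36081950-36105992), went from 1.63, 2.75 and 4.22 TPM to 0.731, 1.25 and 2.19 TPM on 30 to 122 counts per library. Its ranges overlapped, and the log2 fold change was -0.89 (SE 0.19; edgeR's quasi-likelihood adjusted p = 0.00016). *Reln* (Entrez 19699, chr5:21884454-22344705) went from 44.9, 52.2 and 61.7 TPM to 13.3, 14.1 and 14.6 TPM, with no overlap. Its log2 fold change was -1.71 (SE 0.044; edgeR's quasi-likelihood adjusted p = 2.9e-22). Of the 6 Cajal-Retzius genes 5 fell by at least 2-fold and none rose, *Ebf3* and *Lhx1* among them, but *Trp73*, the most specific of these markers, had 1.303 TPM at E18.5 and 1.19 TPM at P21. Several of these markers are also made by other midbrain neurons, and their part in the fall of *Reln* was not tested.

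Other genes of the same pathways moved as follows between the ages, on lists compiled for this purpose. All 8 peptide processing genes rose at least 2-fold, including *Cpe*, the carboxypeptidase that trims peptide precursors, with a log2 fold change of 1.44, and the granins *Chga* with 1.44, *Scg2* with 1.08 and *Scg5* with 1.07. All 6 genes of GABA synthesis, packaging and uptake rose, among them the GABA transporter *Slc6a11* (1.77), the GABA transaminase *Abat* (1.97) and the synthetic enzyme *Gad1* (0.59). Their medians were 1.44 and 1.14 against -0.02 over all genes.

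In contrast, 12 of 16 transcription factors of forebrain GABA neurons fell and *Npas1* alone rose, with a median of -1.20. *Nr2f2*, a factor of caudal ganglionic eminence cells, had a log2 fold change of -1.49. *Maf*, which acts in medial ganglionic eminence cells, had -0.81, *Prox1* -0.28 and *Satb1* -0.14. The receptor *Lrp8* and the adaptor *Dab1* of the reelin pathway fell with *Reln*, by log2 fold changes of -1.70 and -1.07, whereas the other receptor *Vldlr* rose by 0.16.

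Of the 12 receptors of the peptides, 7 rose and 3 fell. *Cckbr*, a cholecystokinin receptor, rose by 0.79 and *Npy1r*, a neuropeptide Y receptor, by 0.78 on the log2 scale, while the somatostatin receptors *Sstr2* and *Sstr1* had log2 fold changes of -0.40 and -0.15. Of 14 other EF-hand genes tested 13 rose and none fell, with a median of 0.58, including the neuronal calcium sensors *Vsnl1* at 1.95 and *Ncs1* at 0.83. The calmodulin gene *Calm3* rose by 0.39, and *Calm2* had a log2 fold change of 0.04 without passing the test. Of 15 other interneuron transcripts 9 rose and 5 fell, including *Kcnc1*, a potassium channel of fast-spiking cells, at 1.79, the peptide gene *Penk* at 1.45, *Tac1* at 0.20 and the cannabinoid receptor *Cnr1* at -0.997.

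Region at P21 was compared as cortex against midbrain. All 9 genes passed the same test over 16345 genes, of which 78.2% passed. Here 7 genes were higher in cortex and 2 were lower, against 39.1% and 39.2% of all genes. At least 2-fold differences were found for 5 genes higher in cortex and for *Pvalb* and *Calb2* lower, against 7.57% and 7.82% of all tested genes. Ranges did not overlap for any of the 9 genes, against 47.3% of all tested genes. The median log2 fold change was 1.20 over the 9 genes and -0.00 over all genes.

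**Figure D3:**
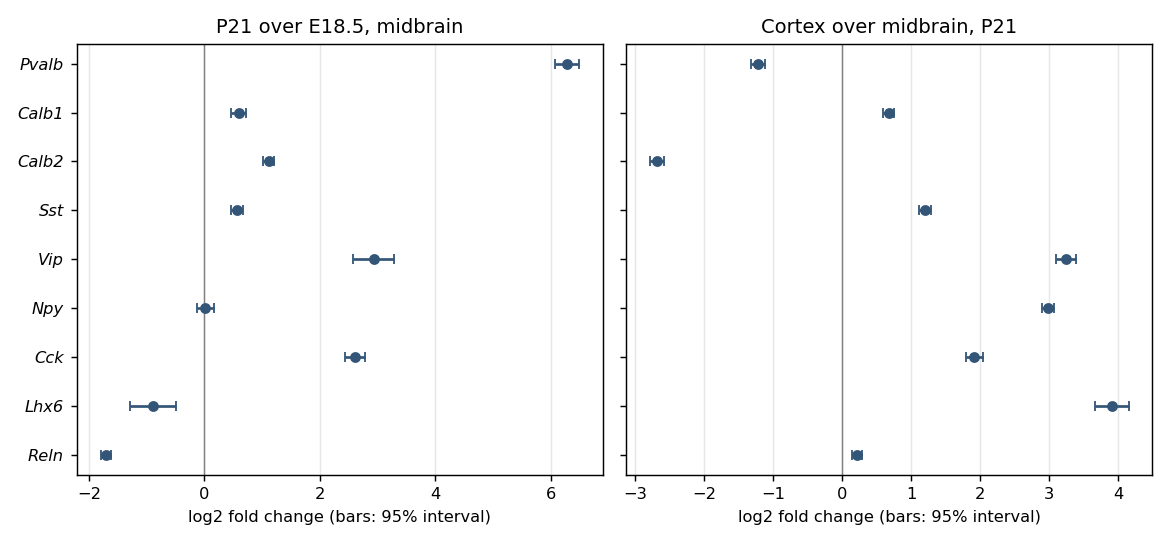
Log2 fold change of each gene with its 95% interval, left for P21 over E18.5 in midbrain and right for cortex over midbrain at P21. *Pvalb* has the largest rise with age (6.27) and is lower in cortex (-1.22), while *Lhx6* falls with age (-0.89) and has the largest difference towards cortex (3.91).

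The peptide genes were all higher in cortex. *Vip* lay at 5.60, 6.89 and 8.37 TPM in midbrain and at 58.4, 61.8 and 69.5 TPM in cortex (lowest, median and highest), a log2 fold change of 3.24 (SE 0.070; edgeR's quasi-likelihood adjusted p = 2.3e-22). *Npy* lay at 63.0, 77.6 and 86.1 TPM in midbrain and at 554, 571 and 607 TPM in cortex, a log2 fold change of 2.98 (SE 0.042; edgeR's quasi-likelihood adjusted p = 1.0e-25). For both genes every cortex library was above every midbrain library.

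*Cck* lay at 140, 174 and 202 TPM in midbrain and at 569, 624 and 750 TPM in cortex, a log2 fold change of 1.92 (SE 0.060; edgeR's quasi-likelihood adjusted p = 4.2e-19). *Sst* lay at 302, 340 and 377 TPM in midbrain and at 702, 729 and 854 TPM in cortex, a log2 fold change of 1.20 (SE 0.041; edgeR's quasi-likelihood adjusted p = 2.7e-18). Of the 4 peptides *Sst* thus had the smallest difference between the regions. The 4 striatal genes were all higher in cortex than in midbrain, though most of their sum was *Ppp1r1b*. They mark a tissue whose interneurons make *Sst* and *Npy*, and their part in these levels was not tested.

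*Lhx6* had the widest difference, at 0.731, 1.25 and 2.19 TPM in midbrain and 17.4, 19.1 and 20.4 TPM in cortex. The log2 fold change was 3.91 (SE 0.12; edgeR's quasi-likelihood adjusted p = 1.6e-19), or 15.0-fold. Calcium-binding proteins went in different directions. *Calb1* was higher in cortex, with 125, 134 and 142 TPM against 80.9, 89.5 and 92.3 TPM and a log2 fold change of 0.67 (SE 0.037; edgeR's quasi-likelihood adjusted p = 3.4e-14).

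*Pvalb* was lower in cortex, with 125, 128 and 137 TPM against 270, 328 and 361 TPM. Its log2 fold change was -1.22 (SE 0.048; edgeR's quasi-likelihood adjusted p = 3.2e-17). *Calb2* was lower still, with 69.4, 75.6 and 88.3 TPM against 472, 520 and 559 TPM. Its log2 fold change was -2.68 (SE 0.048; edgeR's quasi-likelihood adjusted p = 7.1e-24), which is 6.42-fold lower. The other 4 thalamic marker genes examined, *Slc17a6*, *Prkcd*, *Tcf7l2* and *Lef1*, were all lower in cortex as well, and their part in the level of *Calb2* was not tested.

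*Reln* differed least. It lay at 13.3, 14.1 and 14.6 TPM in midbrain and at 14.6, 15.1 and 17.2 TPM in cortex, the ranges just apart, and the log2 fold change was 0.21 (SE 0.035; edgeR's quasi-likelihood adjusted p = 1.2e-05). Exons of *Reln* share 246 bases with the antisense gene *Gm10475*, and those of *Lhx6* share 104 bases with *Gm27953* on the same strand, in the GENCODE annotation. The use of strand in counting is not given in the sources used here.

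Related genes also differed between the regions. Of 16 forebrain GABA neuron transcription factors 11 were higher in cortex and 4 lower, with a median of 1.65, including *Dlx1* at 2.72, *Satb1* at 1.49 and *Maf* at 0.41, while *Nr2f2* was lower at -0.36. By contrast 5 of 6 genes of GABA synthesis, packaging and uptake were lower in cortex, and *Gad1* alone passed as higher by a small margin. *Slc6a11* had a log2 fold change of -2.23 and *Abat* -0.84. *Gad1* had a log2 fold change of 0.06 (edgeR's quasi-likelihood adjusted p = 0.084), while its mean TPM was 156 in midbrain and 153 in cortex, so that its direction depended on the scale, and these GABA markers had a median of -0.30 against 1.20 for the 9 genes.

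Of the peptide receptors 8 of 12 were higher in cortex and 2 were lower, with a median of 1.09. *Cckbr* had a log2 fold change of 2.51, *Sstr2* 1.56, *Npy1r* 1.09 and *Sstr1* 0.75. *Vipr1* and *Vipr2*, the receptors of vasoactive intestinal peptide, were opposed, at 4.57 and -2.80, and were named after their values were seen. Of the peptide processing genes 4 were higher and 2 lower in cortex, with *Chgb* at 0.60, *Cpe* at 0.36, *Scg5* at 0.12 and *Chga* at -0.76.

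Among 15 other interneuron transcripts 9 were higher in cortex and 5 lower, including *Penk* at 1.85, *Cnr1* at 1.42, *Tac1* at 0.96 and *Kcnc1* at -0.72. Of 15 EF-hand genes 11 were higher and 3 lower, with *Calm2* at 1.02, *Calm3* at 0.55 and *Vsnl1* at 0.07. The reelin adaptor *Dab1* was higher in cortex by 1.06 on the log2 scale and *Lrp8* by 0.39, and *Vldlr* had a log2 fold change of -0.14. These lists had medians of 0.96, 0.57 and 0.39, against -0.00 over all genes.

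Genotype was the study's main question and was compared within each age and region. A gene passed here where edgeR gave p under 0.05 as well as an adjusted p under 0.1. No gene did in any of the 3 sets, 0% of 15540, 15972 and 15767 genes. An unadjusted edgeR p under 0.05 was found for 201 (1.29%), 426 (2.67%) and 450 (2.85%) of all tested genes. The study, with edgeR at the same thresholds, reported *Gkn3* as lower in P21 midbrain of hu/hu mice. It does not name which edgeR test it used, so its result and the one here may rest on different tests. Of these 9 genes, 8 could be tested in E18.5 midbrain and 9 in each P21 region, and none passed. None of them had an unadjusted p under 0.05 in this edgeR fit either. With the replicate number as a block, 3 of these cases did so in edgeR's quasi-likelihood test and none passed. For *Sst* the unadjusted edgeR p for midbrain was then 0.0088 at E18.5 and 0.0139 at P21, with an adjusted p of 0.928 and 0.999. For *Pvalb* in P21 midbrain the unadjusted edgeR p was 0.0183 and the adjusted p 0.999. The shares of all genes above come from the fit without the block. Shares with the block are not given here, so how unusual these 3 cases were cannot be read from the shares above. A two-sided exact permutation test of mean TPM, run for each gene in each set, gave an unadjusted p under 0.05 in 2 of 27 cases, *Sst* (0.0368) and *Vip* (0.026) in E18.5 midbrain. It was run for these 9 genes alone, so no share of all genes stands beside that count. The hu/hu and wt/wt TPM ranges of the 9 genes overlapped in all 27 cases, against 0.0515%, 1.92% and 2.02% of genes without overlap. The median log2 fold change of hu/hu over wt/wt was 0.00 at E18.5 and -0.05 at P21 for midbrain and 0.02 for cortex, and -0.00 over all genes in each set.

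**Figure D4:**
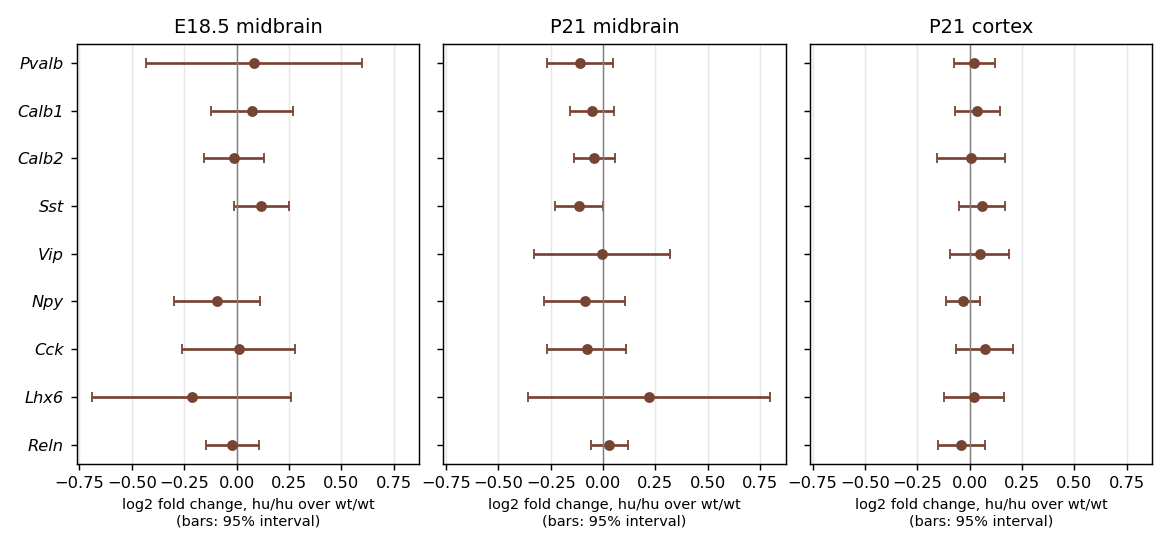
Log2 fold change of hu/hu over wt/wt with its 95% interval for each gene in the 3 sets, *Vip* being untested in E18.5 midbrain. All intervals, from the fit without the replicate block, include 0. They are widest for *Lhx6* and for *Pvalb* in E18.5 midbrain, where counts were low.

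The intervals, from the fit without the replicate number as a block, differed in width between the sets. In P21 cortex the 95% intervals of all 9 genes lay between -0.16 and 0.21 on the log2 scale. In P21 midbrain they lay between -0.36 and 0.80, and that width came from *Lhx6*, at 1.03, 1.29, 1.16 and 1.37 TPM in wt/wt and 0.731, 1.21, 1.56 and 2.19 TPM in hu/hu. In E18.5 midbrain they lay between -0.69 and 0.60, the ends belonging to *Lhx6* and *Pvalb*.

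Among genes past the filter *Sst* came closest to a difference in the edgeR fit, in opposite directions at the 2 ages of midbrain. In E18.5 midbrain its lowest, median and highest levels were 240, 252 and 277 TPM in wt/wt and 253, 283 and 296 TPM in hu/hu. The groups overlapped, but hu/hu was above the wt/wt library of the same replicate number in 6 of 6 pairs. All 6 pairs went in 1 direction for 3.22% of all tested genes. The log2 fold change was 0.12 (SE 0.063, 95% interval -0.01 to 0.25; edgeR's quasi-likelihood adjusted p = 1.0).

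In P21 midbrain *Sst* lay at 368, 377, 342 and 337 TPM in wt/wt and at 327, 339, 343 and 302 TPM in hu/hu. The groups overlapped, with hu/hu lower in 3 of 4 pairs. The log2 fold change was -0.12 (SE 0.055, 95% interval -0.23 to 0.00; edgeR's quasi-likelihood adjusted p = 1.0). In P21 cortex it lay at 708, 754, 702 and 750 TPM in wt/wt and at 722, 736, 715 and 854 TPM in hu/hu, a log2 fold change of 0.06 (SE 0.051; edgeR's quasi-likelihood adjusted p = 1.0).

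The difference between the genotype effects on *Sst* was tested as an interaction. Between the ages of midbrain it was -0.23 on the log2 scale (SE 0.088, 95% interval -0.41 to -0.05), with an unadjusted p of 0.0143 in edgeR's quasi-likelihood test and an adjusted p of 1.0. Between the regions at P21 it was 0.17 (SE 0.076), with an unadjusted p of 0.0355 and an adjusted p of 1.0 in edgeR. With the replicate number as a block the unadjusted edgeR p was 0.00064 and 0.0061 and the adjusted p 0.995 and 1.0. Neither passed, with or without the block. Without it, 1.86% and 2.28% of all genes had an unadjusted edgeR p under 0.05 in these 2 tests. The shares of all genes with the block are not given here. *Sst* was the only one of the 9 genes among those in either test.

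**Figure D5:**
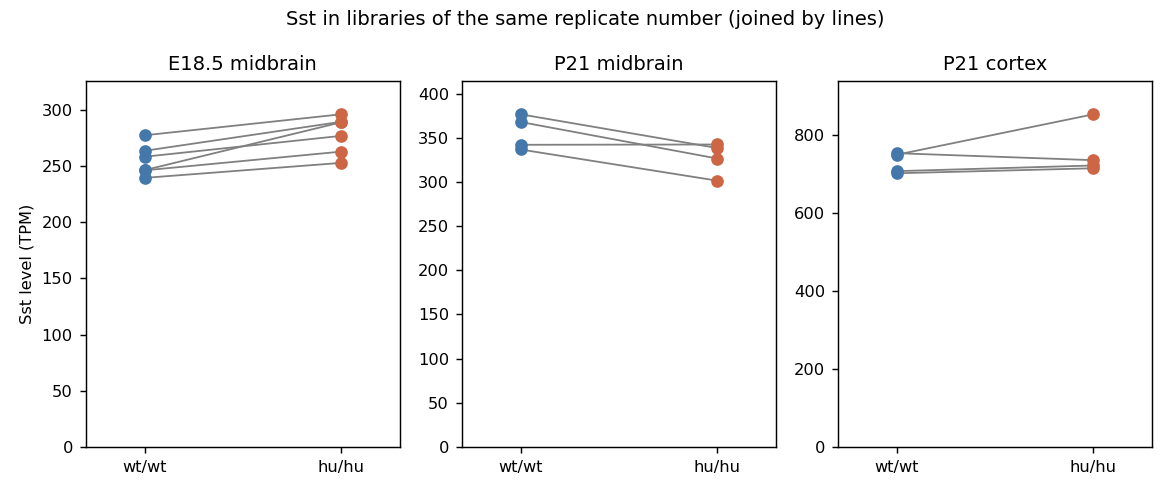
*Sst* level in TPM in wt/wt and hu/hu libraries, with lines joining libraries of the same replicate number. Lines go up in 6 of 6 pairs in E18.5 midbrain and down in 3 of 4 pairs in P21 midbrain, while the 4 cortex pairs differ in direction.

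*Pvalb* in P21 midbrain lay at 361, 351, 280 and 333 TPM in wt/wt and at 296, 331, 270 and 325 TPM in hu/hu. It was lower in hu/hu in 4 of 4 pairs, but the groups overlapped widely, and the log2 fold change was -0.11 (SE 0.074, 95% interval -0.27 to 0.05; edgeR's quasi-likelihood adjusted p = 1.0). *Npy* was also lower in 4 of 4 pairs there, with 79.0, 75.3, 86.1 and 76.5 TPM against 78.7, 63.0, 81.7 and 74.0 TPM and a log2 fold change of -0.09 (SE 0.090; edgeR's quasi-likelihood adjusted p = 1.0). All 4 pairs went in 1 direction for 12.1% of all tested genes. Purkinje cells of the cerebellum also make *Pvalb*. Markers of these and of other cerebellar neurons, 8 genes in all, were measured in the same libraries. They summed to 71.0 to 108 TPM in wt/wt and 71.7 to 82.1 TPM in hu/hu, with overlapping ranges. All 8 were lower in hu/hu, with a median log2 fold change of -0.42. *Cbln1*, the most abundant of them, had -0.07 and *Neurod1* -0.71. The largest falls were -1.57 for *Gabra6* and -1.34 for *Cbln3*, which had means of only 2.52 and 2.68 TPM in P21 midbrain. In edgeR 5 of 8 had an unadjusted p under 0.05 but none passed. Their part in the levels of *Sst*, *Pvalb* and *Npy* was not tested.

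*Vip* in E18.5 midbrain fell below the filter on low counts. It had 1, 7, 7, 8, 9 and 12 counts in wt/wt, or 0.118 to 1.27 TPM, and 6, 9, 12, 12, 14 and 21 counts in hu/hu, or 0.788 to 1.57 TPM. The means were 0.790 ± 0.381 TPM and 1.28 ± 0.318 TPM (SD, n = 6 each), with overlapping ranges. The exact permutation p of 0.026 was not adjusted for the 27 comparisons of these genes between genotypes. Without the filter edgeR's quasi-likelihood test gave a log2 fold change of 0.69 and an adjusted p of 1.0. The exact permutation p was 0.0519 when any of 4 libraries was left out (hu/hu replicates 3, 4 and 6 and wt/wt replicate 4, which held 1 count), so that passing 0.05 depended on single libraries. The difference was then 0.360 to 0.457 TPM. In P21 midbrain *Vip* lay at 7.73, 6.52, 6.86 and 6.91 TPM in wt/wt and at 6.41, 5.60, 8.37 and 7.49 TPM in hu/hu, and its log2 fold change was -0.01 (SE 0.15; edgeR's quasi-likelihood adjusted p = 1.0).

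The related gene lists held no gene that passed between genotypes in any set. Median log2 fold changes of the peptide receptors were 0.02, -0.03 and -0.01 (midbrain at E18.5 and P21, then cortex), and those of peptide processing genes -0.03, 0.01 and -0.02.

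Age and region effects were also fitted in each genotype. Fitted on wt/wt or hu/hu libraries alone, the 8 genes that changed with age passed in each, with log2 fold changes such as 6.36 and 6.21 for *Pvalb*, 1.13 and 1.11 for *Calb2* and -1.73 and -1.66 for *Reln*. All 9 region differences likewise passed in each genotype, with 4.01 and 3.83 for *Lhx6* and -2.71 and -2.65 for *Calb2*. With both genotypes together 87.6% of all genes passed with age and 78.2% between regions, so these counts say little about the 9 genes. The shares in the fits of 1 genotype are not given here. *Vip*, 1 of the 8, was near the floor at E18.5, so its passing is a description.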

How the data were processed

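For each of 28 libraries the authors deposited 3 columns for 23038 genes, the estimated count, the exon length and the RPKM. Per the labels and the study's methods, polyadenylated RNA was sequenced in pairs, aligned to mm10 with OLego and counted with Quantas. The deposited RPKM values followed from the counts, lengths and totals and were not used further. TPM was computed from unrounded counts. Rounded counts were tested with edgeR 4.0.16 (R 4.3.3; glmQLFit and glmQLFTest, TMM factors, filterByExpr), two-sided, within the libraries of each comparison, with Benjamini-Hochberg adjustment over all genes tested. A gene passed at an adjusted p under 0.1, and between genotypes also p under 0.05. DESeq2 1.42.0 was an alternative. The script was tested on simulated data.

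The members and gene lists were chosen with earlier results of these data known. From each list the genes that passed were named, or, where there were over 4, those 4 of highest mean TPM, plus genes a result turns on. A few genes counted in these lists are not reported here by name. The 3 genes most like each member were named too. A two-sided exact permutation test of mean TPM between genotypes was planned for genes below the filter and was run for all 9 genes.

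Replicate numbers came from the labels, which do not say what they mark. In each set, deviations from the group means correlated between hu/hu and wt/wt libraries of 1 number in every pair (0.25 to 0.50), against medians of -0.17 to -0.09 for other numbers, so the numbers were taken to pair the genotypes. Between regions they were -0.22 to -0.12 and between ages -0.17 to 0.18, so the numbers pair neither. Totals ranged from 18550922 to 45134998, and no libraries of a group agreed within sampling noise. Whether P21 cortex and midbrain came from the same mice is not given in the sources used here, so p-values between regions treat them as separate.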

Additional observations from a re-analysis of the deposited data

Results flagged for a closer look

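In 3 of the 54 groups of 4 or 6 libraries, 1 library stood apart from the others by the Dixon criterion, which chance gives in about 1 of 20 groups. *Sst* in P21 cortex of hu/hu mice reached 854 TPM in replicate 4, against 715 to 736 TPM in the other libraries. *Calb1* in P21 midbrain of wt/wt mice reached 92.3 TPM in replicate 3, against 89.4 to 89.6 TPM, a small difference among unusually close values. *Calb2* reached 559 TPM in the same library, against 517 to 522 TPM.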

How the results depend on the processing

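Other scaling factors, filters, a stricter threshold, DESeq2, single genotypes and the replicate block gave 314 fitted changes for these genes, and in all 314 the direction and the side of the threshold stayed as reported. With the replicate number as a block, 4 genes of all tested passed between genotypes in P21 midbrain in place of 0, and DESeq2 passed 1 there. None of the 4 or the 1 was among the 9 genes, and the block changed no other call. Leaving out each library in turn changed no call of a fitted change but turned the sign of small log2 changes that had not passed. In E18.5 midbrain by genotype they ranged from -0.068 to 0.23 for *Pvalb*, -0.088 to 0.072 for *Cck*, -0.043 to 0.025 for *Calb2* and -0.043 to 0.017 for *Reln*. In P21 midbrain they ranged from -0.11 to 0.087 for *Vip*, -0.17 to 0.0072 for *Cck* and -0.061 to 0.44 for *Lhx6*. In P21 cortex they ranged from -0.0048 to 0.081 for *Vip*, -0.0025 to 0.12 for *Cck*, -0.061 to 0.077 for *Calb2*, -0.0092 to 0.062 for *Lhx6* and -0.070 to 0.020 for *Reln*. With age *Npy* ranged from -0.010 to 0.048, and the genotype by region term of *Vip* from -0.038 to 0.16. The log2 ratio of *Npy* levels with age was -0.18 in TPM and 0.033 on TMM-scaled RPKM. The *Vip* difference at E18.5 ranged from 0.360 to 0.594 TPM when a library was left out, chosen after seeing the data, and p was under 0.05 in 8 of 12 cases. The cause was not tested. Low counts of *Vip*, *Lhx6* and *Pvalb* at E18.5 limit what could be seen there.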

Other observations

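Small deviations of each gene from its group means were compared with those of 14316 genes of at least 1 TPM in each set, over the 28 libraries on log2 CPM. These correlations describe shared variation between libraries, which also share depth and dissection, and carry no test. The genes named had the highest r of the 14316 in these same libraries. High values are thus expected from the choice itself, and the r within each set is no independent support. *Reln* varied most like *Slc4a8* (r = 0.899), *Ap1b1* (0.862) and *Nup210* (0.855), and all of them kept an r of at least 0.54 within each set. *Calb1* varied most like *Rgs7bp* (0.870), *Ogfod1* (0.825) and *Car8* (0.820). *Car8*, a Purkinje cell gene, had an r of 0.907 with *Calb1* at E18.5 and -0.016 at P21 in midbrain. *Sst* varied most like *Ndufs7* (0.841), *Ccdc124* (0.812) and *Edf1* (0.801), with an r of at least 0.679 within each set. *Npy* varied most like *Mmp17* (0.773), *Shisa9* (0.769) and *Sh3rf3* (0.760).

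The other genes had lower or less even likenesses. The genes most like *Lhx6* were *Snrnp40* (0.782), *Grip1* (0.703) and *4933421E11Rik* (0.698), those most like *Calb2* were *Gstm5* (0.761), *Rilpl2* (0.749) and *Itgb1bp1* (0.741), and those most like *Cck* were *Ddah1* (0.759), *Mmd2* (0.745) and *Plxdc1* (0.738). For *Vip* they were *Dnajc30* (0.759), *1810044D09Rik* (0.752) and *Mall* (0.752), and for *Pvalb* they were *Mphosph10* (0.734), *Cyp27a1* (0.719) and *Dnttip2* (0.651). Within P21 cortex the r was -0.29 for *Snrnp40* with *Lhx6*, -0.28 for *Cyp27a1* with *Pvalb* and -0.21 for *Shisa9* with *Npy*. Among the 9 genes themselves the r lay between -0.43 (*Calb2* and *Reln*) and 0.427 (*Calb1* and *Reln*).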
